A study of Mus musculus with 14 samples.

Results

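Repeatedly activated Th1 cells were compared late after reactivation, at 72 h against 48 h. The 10 arrays of these 2 time points were chosen by their labelled time point, out of 14 arrays in the series. The other 4 were harvested at 36 h and are used only where a level at 36 h is given. Each array is an Affymetrix mouse genome GeneChip, to which total RNA was hybridized after reverse transcription. The array reads the level of each transcript as the brightness of a probe set, a group of short probes to one transcript.

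The labels and methods describe the same kind of starting material and the same culture protocol for all groups. Naive CD4+ T cells came from spleens and lymph nodes of OT-II mice 6 to 10 weeks of age, which carry a transgenic T cell receptor for an ovalbumin peptide. They were stimulated repeatedly with that peptide and irradiated antigen-presenting cells under IL-12 and αIL-4, with IL-2 added from the second round. Viable cells were then kept for 1.5 h with an antagomir at 1 µM, a modified oligonucleotide taken up by cells to block a microRNA, and reactivated on plate-bound αCD3 and αCD28 at 3 µg/ml with IL-12, αIL-4 and IL-2. Antagomir-31 is directed at miR-31 and Antagomir-SCR is its scrambled control. At 48 h there were 2 Antagomir-31 and 2 Antagomir-SCR arrays, and at 72 h 3 and 3. There was no array of cells without antagomir. The study's general culture protocol moved cells off the stimulus at 48 h unless stated otherwise, and neither the labels nor the methods say whether that was done for these samples. How many mice or cultures stand behind the replicate numbers is not stated, so the p-values below measure the spread between these arrays, which may be technical.

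When a T helper cell meets antigen, receptor signalling through calcium, NF-κB and MAP kinases switches on a first wave of transcription factors of the EGR, NR4A, FOS and REL families. These drive cytokines and chemokines for as long as the signal lasts, and the cell grows and divides under IL-2. Negative feedback regulators and co-inhibitory receptors are induced by the same signal. After withdrawal of antigen, activated cells lose the first wave, keep dividing for a time on cytokine, and regain receptors that guide traffic between tissue, blood and lymph. Th1 cells are defined by T-bet, encoded by Tbx21, and by IFN-γ.

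The 2 time points differed in more than time. Xist, the noncoding RNA made from the inactive X chromosome of female cells, read between 21.8 and 27.7 on the 48 h arrays and between 2284 and 2988 on the 72 h arrays when all 14 arrays were normalized together. The Y-linked genes went the other way. Eif2s3y read 828 to 957 at 48 h and 4.84 to 5.49 at 72 h, Kdm5d 120 to 136 and 4.31 to 5.92, and Uty 167 to 193 and 6.17 to 7.37. The 36 h arrays lay with the 48 h arrays for all of these, with Xist at 13.5 to 15.9 and Eif2s3y at 797 to 890. So the 36 h and 48 h cells carried Y-linked transcripts and the 72 h cells carried Xist instead, as cells from mice of different sex do. The sex of the mice is not given in the labels or methods. Time, the mice and culture of origin and any array batch coincide here and cannot be told apart. "Higher" and "lower" below mean 72 h against 48 h with that limit.

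**Figure D1:**
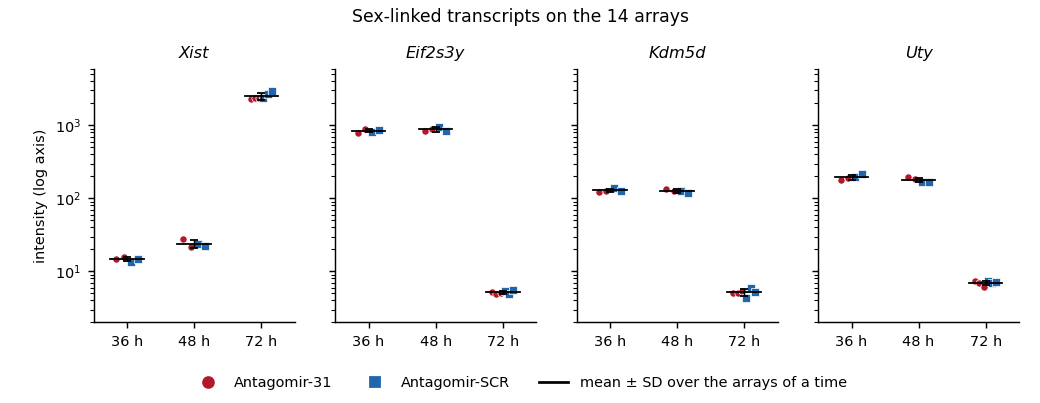
Intensity (log axis) of Xist and 3 Y-linked genes on each of the 14 arrays at 36, 48 and 72 h, with the mean and SD over the arrays of a time. The 36 h and 48 h arrays read high for Eif2s3y, Kdm5d and Uty and low for Xist, and the 6 arrays at 72 h do the opposite.

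The deposited values also differed in scale between the times. Their array medians were 21.8 to 22.1 at 48 h and 27.9 to 28.4 at 72 h, and whether the times were normalized together is not stated, so the 10 arrays were quantile normalized together before testing. Spike-in RNAs that have no mouse gene still read lower at 72 h for 39 of 45 probe sets, with a median log2 difference of -0.23 and a range of -0.68 to 0.29. None of them moved by 2-fold. Actin, whose 3′ signal over its 5′ signal is a sign of RNA integrity, had a log2 ratio of 0.34 to 0.41 at 48 h and 0.18 to 0.26 at 72 h. The same ratio of Gapdh went the other way, from -0.04 to -0.01 at 48 h and from -0.01 to 0.09 at 72 h. The part that these array-wide differences played in the results was not tested, and small shifts are therefore read as values only.

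Some T cell and Th1 genes were far above the array median at both times. The series held no other cell type to compare with, so the name Th1 rests on the labels. Cd3d, a chain of the T cell receptor complex, averaged 5898 at 48 h and 5019 at 72 h, Tbx21 averaged 1110 and 1684, and Ifng 16379.5 and 7971, against an array median of 25.5. Cd4 was dimmer, at 202 and 245. Other Th1 markers, among them Cxcr3, Il12rb2 and Twist1, are not given here. Most markers of B cells, macrophages and dendritic cells were at or near the dim end of the arrays. Of 11 B cell markers 5 passed the brightness filter, of 16 macrophage and monocyte markers 5, and of 12 dendritic cell markers 6, and Cd79a, Ms4a1, Adgre1, Itgam, Itgax, Cd8b1, Ncr1, S100a8 and Foxp3 did not. The summed level of the B cell markers was 352 to 376 at 48 h and 349 to 385 at 72 h, and that of the macrophage markers 417 to 452 and 371 to 403. The dendritic cell markers summed to 616 to 659 and 675 to 809, through Cd74, the class II invariant chain, at 97.1 ± 6.68 (SD, n = 4) and 219.6 ± 30.3 (SD, n = 6). Some markers shared with other T and NK cells were bright. Of 7 markers of CD8 T and NK cells 3 passed the filter and summed to 3633 to 4136 at 48 h and 2405 to 2861 at 72 h. Most of that was Klrk1, which encodes the activating receptor NKG2D, at 3514 ± 243 (SD, n = 4) and 2351 ± 169 (SD, n = 6), and Klre1 fell by 1.23 on the log2 scale, while Cd8a averaged 33.8 and 32.6 and did not pass the test. Of 5 Treg markers 4 passed and summed to 883 to 972 and 501 to 545, through Nrp1, which encodes neuropilin 1, at 652 ± 38.3 (SD, n = 4) and 130 ± 5.72 (SD, n = 6). The 6 Th2 markers on the array, of which 3 passed, summed to 270 to 295 at 48 h and 213 to 332 at 72 h. The 3 Th17 markers, of which 2 passed, summed to 90.0 to 93.3 and 107 to 117. The part of all these markers in the results was not tested. In such bulk RNA, fewer cells of a type and less RNA per cell cannot be told apart.

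Most of the transcriptome differed between the times. Of 10916 genes tested with limma, 8345 (76.4%) passed an adjusted p of 0.05. Of these, 4277 were higher at 72 h (39.2% of the genes tested) and 4068 lower (37.3%). For 6985 genes (64.0%) the arrays of the 2 times did not overlap at all. On the deposited scale, where the median gene was shifted by 0.34 on the log2 scale, the split was 7797 higher and 1657 lower, so the direction of small differences depends on the scaling. Differences of 2-fold or more were far fewer. They numbered 710 (6.50%), of which 273 were higher (2.50%) and 437 lower (4.0%), and on the deposited scale 756 and 263. The lower side reached further: 129 genes were lower by at least 4-fold and 17 by at least 16-fold, against 37 and 2 higher. Each list count below stands beside these shares of all genes tested: 39.2% higher and 37.3% lower, and 2.50% and 4.0% past 2-fold.

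At 36 h the same genes stood close to their 48 h levels. With all 14 arrays normalized together, the 36 h mean of 707 of the 710 genes lay within 2-fold of the 48 h mean, and for 698 it was nearer to the 48 h mean than to the 72 h mean. The 710 were selected for a difference between 48 h and 72 h, which favours that outcome. The 36 h arrays also shared the sex-linked levels of the 48 h arrays, so time and origin cannot be told apart here either. For 114 of the 710 the dimmer time averaged under the array median of 25.5, where a fold is limited by background. Of 392 genes of the 710 read by more than 1 probe set, every probe set moved in the same direction in 296. On the X chromosome lay 18 of the 710, out of 317 genes tested there, and on the Y chromosome 1 of 3. The Y count covers only genes past the brightness filter, which uses the mean over both times. Y-linked genes that are nearly dark at 72 h can fall below it. Eif2s3y, Kdm5d and Uty all differed by far more than 2-fold in the levels given above, so the count does not show that most Y-linked genes stayed level.

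**Figure D2:**
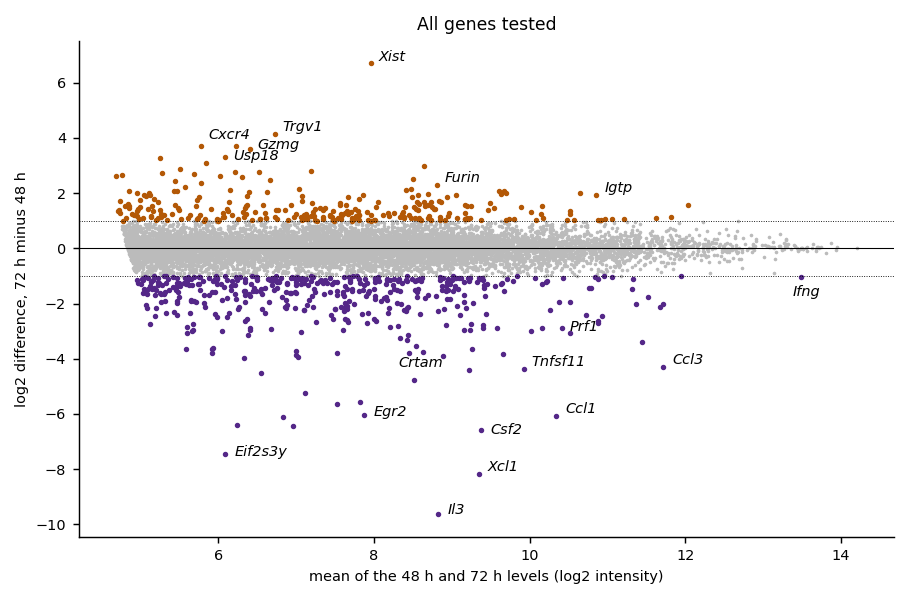
Log2 difference at 72 h minus 48 h against the mean log2 level, 1 point per gene tested (10916), with genes past the test and at least 2-fold higher in orange (273), lower in purple (437) and all others in grey. The dotted lines mark 2-fold. Points on the lower side reach down to Il3 at -9.62, while Xist at 6.70 is the farthest on the upper side.

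Of all genes tested Il3 fell furthest, and other secreted cytokines fell with it. Il3, a growth factor for mast cells and basophils, read 12739, 12243, 12739 and 13089 at 48 h and between 13.7 and 19.5 at 72 h, with a mean of 16.2 ± 1.86 (SD, n = 6). It was thus among the brightest transcripts at 48 h and under the array median of 25.5 at 72 h, with a log2 difference of -9.62 ± 0.07 (SE) and an adjusted p of 4.4e-16. Csf2, which encodes GM-CSF, read 6300, 5783, 6525 and 7381 at 48 h and 59.3 to 76.2 at 72 h with a median of 68.5, a log2 difference of -6.57 ± 0.06 (SE). Il1a fell from 692 ± 91.7 (SD, n = 4) to 8.25 ± 1.38 (SD, n = 6). No array of one time came near any of the other for these 3 genes.

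Over the list of secreted cytokines, 18 of 27 members past the filter were lower (66.7%) and 6 higher, and 10 were lower by at least 2-fold (37.0%, against 4.0% of all genes). The list's median log2 difference was -0.48, and -0.11 on the deposited scale. The TNF family ligands Tnfsf11, which encodes RANKL, and Tnfsf14, which encodes LIGHT, fell, with log2 differences of -4.38 and -3.78. Il2, the T cell growth factor, was already modest at 48 h (219, 116, 144 and 216) and read 11.9 to 16.5 at 72 h with a median of 12.7, under the array median. Tnf read 880, 784, 971 and 1093 at 48 h and 228 to 293 at 72 h, a log2 difference of -1.84 ± 0.08 (SE). Il10, an anti-inflammatory cytokine that Th1 cells make late, went the other way. It read 26.9, 19.6, 20.2 and 28.1 at 48 h and 78.7 to 196 at 72 h with a median of 114, a log2 difference of 2.38 ± 0.23 (SE, adjusted p = 1.3e-06).

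Ifng, the defining Th1 cytokine, remained one of the brightest transcripts at 72 h but at a lower level. It ranked second on all 4 arrays at 48 h, so quantile normalization gave it one value there, 16379.5, and it ranked between 176 and 196 at 72 h with 7675 to 8274 and a median of 7971. The log2 difference was -1.04 ± 0.03 (SE, adjusted p = 8.0e-11). In the deposited values, before the joint quantile normalization used here, it read 15182 to 15675 at 48 h and 8188 to 8718 at 72 h. Those values had already been normalized with RMA by the authors, so they are not free of normalization either.

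Chemokines were the list with the lowest median. Of 9 members past the filter 8 were lower (88.9%) and 6 of them by at least 2-fold, with a median log2 difference of -3.41, or -3.18 on the deposited scale. Xcl1, lymphotactin, which attracts cross-presenting dendritic cells, read 10868, 10746, 11232 and 11322 at 48 h and 36.2 to 41.4 at 72 h. Ccl1 read 10643, 10357, 10416 and 11011 at 48 h and 129 to 181 at 72 h. The groups lay 67.3-fold apart for Ccl1 and 288-fold for Xcl1. Ccl3, an inflammatory chemokine, stayed well above the array median at 72 h. It read 14795, 14193, 15324 and 14795 at 48 h and 605 to 923 at 72 h, a log2 difference of -4.30 ± 0.08 (SE). Ccl22 fell by 3.72 on the log2 scale. Ccl5, named here after its values were seen, was the 1 member higher, at 5817 ± 381 (SD, n = 4) and 6401 ± 284 (SD, n = 6), a log2 difference of 0.14, but with median centring no chemokine passed the test as higher.

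Most genes induced early by T cell receptor signalling fell. Of 44 members past the filter 37 were lower (84.1%, against 37.3% of all genes) and 6 higher. By at least 2-fold 24 were lower (54.5%, against 4.0%). Their median log2 difference was -1.10, and -0.80 on the deposited scale. The list shares Ccl3 and Ccl4 with the chemokines, and Myc, Irf4 and Cd69 with lists below. Egr2, a transcription factor of the calcium and NFAT pathway, read 1916, 1746, 1901 and 2024 at 48 h and a median of 29.3 at 72 h, with a log2 difference of -6.03 ± 0.06 (SE) that both its probe sets shared. Egr1 read 1410, 1409, 1608 and 1761 at 48 h and 25.8 to 39.4 at 72 h. Both EGR genes had thus dropped to about the array median. Nr4a1, an orphan nuclear receptor often used as a reporter of receptor signal strength, read 499, 578, 566 and 532 at 48 h and 65.0 to 73.8 at 72 h, and its relative Nr4a3 fell by 4.76. For Nr4a3, 2 of 3 probe sets moved in that direction. Not every member followed. Irf4 and Myc, both also driven by growth signals, were higher, Irf4 by 0.25 ± 0.06 (SE) with overlapping arrays and Myc by 1.03 ± 0.04 (SE). Cd69, the early activation antigen, was lower by 0.51 ± 0.07 (SE).

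**Figure D3:**
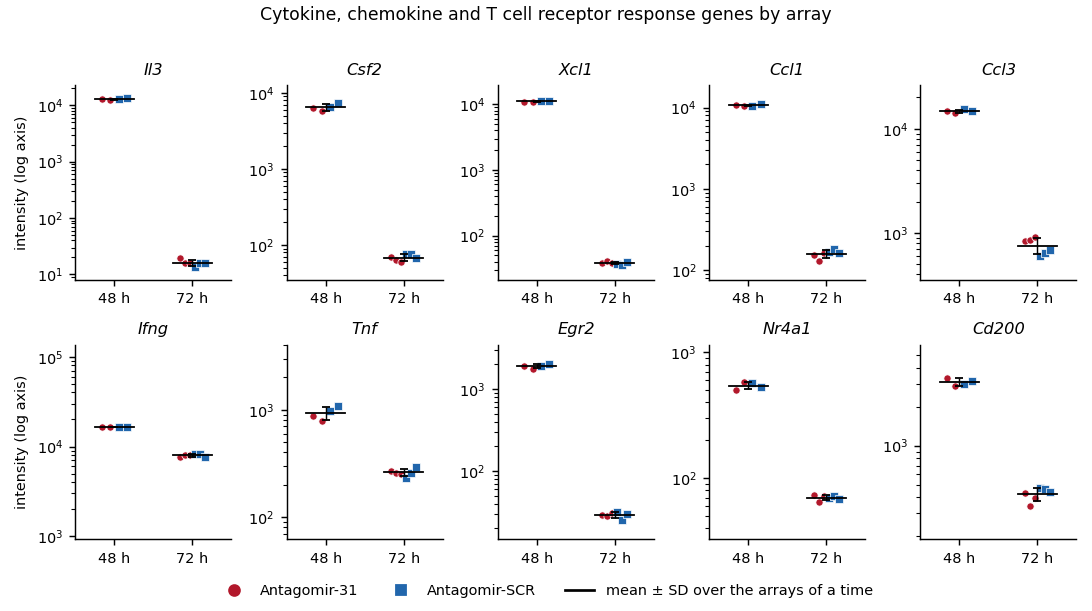
Intensity of 10 genes of the cytokine, chemokine, receptor response and co-inhibitory lists on each array (log axes, each with its own range), with the mean and SD over the 4 arrays at 48 h and the 6 at 72 h. In every panel all 72 h arrays lie below all 48 h arrays, from Il3 at 13.7 to 19.5 against 12243 to 13089 down to Ifng at 7675 to 8274 against 16379.5.

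The co-inhibitory receptors and their ligands that were tested were lower. Of 14 on the array 4 did not pass the filter and were not tested, and all 10 that passed were lower (100%), 8 of them by at least 2-fold (80.0%), with a median log2 difference of -1.49. On the deposited scale 9 of the 10 passed the test in that direction and the median was -1.17. Cd200, a ligand that restrains myeloid cells, read 3345, 2861, 2964 and 3163 at 48 h and 339 to 468 at 72 h. Btla, Lag3 and Vsir, which encode inhibitory receptors of the immunoglobulin family, fell, with log2 differences of -1.86, -1.60 and -1.55. Pdcd1, which encodes PD-1 and falls outside the rule for named genes, fell by 1.50 ± 0.03 (SE).

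Costimulatory and activation receptors were mixed in size. Of 22 past the filter 16 were lower and 2 higher with a median log2 difference of -0.26, which turned to 0.04 on the deposited scale with 9 lower and 8 higher. Tnfrsf9, which encodes 4-1BB, fell by 1.47, and Cd5, a negative regulator of receptor signalling, fell by 2.95. The 2 that were higher were Il2ra, the high-affinity chain of the IL-2 receptor, at 1325 ± 83.1 (SD, n = 4) and 2675 ± 73.5 (SD, n = 6), and Tnfrsf8, which encodes CD30. Tnfrsf8 read 33.2, 28.8, 30.7 and 36.5 at 48 h and 169 to 227 at 72 h, a log2 difference of 2.59 ± 0.06 (SE).

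Signalling components close to the receptor moved both ways. Of 35 past the filter 22 were lower and 11 higher, 7 and 1 of them by 2-fold, and the median of -0.26 turned to 0.03 on the deposited scale. Sla, an adaptor that promotes receptor turnover, and Malt1, the protease of the NF-κB branch, fell, with log2 differences of -2.88 and -1.85. Themis, which sets the signalling threshold in thymocytes, was higher, at 406 and 1275 on average and in all 4 of its probe sets.

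The Th1 programme itself did not move one way. Of 23 members past the filter 10 were lower and 10 higher, 5 and 3 of them by at least 2-fold, and the median of -0.00 turned to 0.36 on the deposited scale. Tbx21 was higher by 0.60 ± 0.04 (SE), from 1135, 1053, 1083 and 1169 at 48 h to 1628 to 1764 at 72 h. Stat4, which relays the IL-12 signal, fell by 2.40 ± 0.05 (SE) from 1267 ± 94.4 (SD, n = 4) to 240 ± 15.6 (SD, n = 6). Furin, the proprotein convertase that IL-12 induces through STAT4, was higher nonetheless, at 207, 216, 194 and 196 at 48 h and 886 to 1071 at 72 h. Il18r1, a chain of the IL-18 receptor, was higher by 0.96. Eomes, the relative of T-bet, was lower by 0.59, at 37.5 and 24.8 on average and so around the array median. Among transcription factors of T helper subsets, 18 of 31 past the filter were higher (58.1%, against 39.2% of all genes) and 11 lower (35.5%, against 37.3%). By at least 2-fold 3 were higher (9.68%, against 2.50% of all genes) and 4 lower (12.9%, against 4.0%). The higher ones are not named here. Besides Stat4, those lower by at least 2-fold were Gata3, the Th2 regulator, Bach2, a repressor of effector genes, and Zeb2, with log2 differences of -2.41, -2.33 and -1.65.

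Genes of the cytotoxic granule split by member. Of 21 past the filter 14 were lower (66.7%) and 7 higher, 6 and 2 of them by at least 2-fold, with a median log2 difference of -0.44 and of -0.15 on the deposited scale. Gzmb stayed at the top of the range, at 15192 ± 264 (SD, n = 4) and 13548 ± 179 (SD, n = 6), and its log2 difference of -0.17 turned to 0.04 on the deposited scale. Gzma was lower by 0.38 ± 0.11 (SE, adjusted p = 0.0072). Ctsw, which encodes a cathepsin of cytotoxic cells, fell by 2.15. Prf1, which encodes perforin, cannot be given one direction. Its brighter probe set fell by 2.89, from 3700 to 502 on average, and the other, which remained when probe sets open to cross-hybridization were left out, was higher by 0.46.

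The granzymes that were higher were dim at 48 h. Gzmk read 38.9, 33.3, 36.1 and 33.4 at 48 h and 202 to 287 at 72 h. Gzmg read 22.8, 20.1, 26.4 and 22.8 at 48 h, under or near the array median. At 72 h Gzmg was at 479, 490 and 393 on the Antagomir-31 arrays and at 147, 152 and 215 on the Antagomir-SCR arrays, the widest difference between the treatments' changes among the genes named by rule. The difference of its 2 changes was 1.62 on the log2 scale, with an adjusted p of 0.084. Gzmc, Gzmd, Gzme, Gzmf and Gzmg, of which only the last was named by rule, are close paralogs, so their probe sets may share signal. Among the killer receptors 8 of 9 were lower (88.9%, against 37.3% of all genes), among them Klrk1 with the values given above. Crtam, an adhesion receptor of cytotoxic cells, fell from 2735 ± 226 (SD, n = 4) to 130 ± 19.0 (SD, n = 6).

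Among receptors that guide cell traffic, 3 were higher by at least 2-fold. Cxcr4, the receptor for CXCL12 that holds cells in bone marrow and lymphoid tissue, read 19.3, 13.2, 10.5 and 18.8 at 48 h, all under the array median, and 172 to 221 at 72 h. S1pr1, the receptor by which T cells leave lymph nodes, read 107, 101, 80.7 and 93.6 at 48 h and 227 to 288 at 72 h. Ccr7, which guides entry into lymph nodes, read 449, 463, 328 and 374 at 48 h and 769 to 957 at 72 h. All 72 h arrays were above all 48 h arrays for these 3. Their log2 differences were 3.70 ± 0.15, 1.46 ± 0.08 and 1.10 ± 0.10 (SE). Cxcr6, a receptor for retention in inflamed tissue, fell by 1.16 ± 0.09 (SE). Over the whole list of 13 such receptors past the filter 6 were higher and 5 lower, and the median of 0.03 turned to -0.09 with median centring.

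The genes that mark quiescence and FOXO1 activity did not move as a group. Of 43 past the filter 20 were higher and 16 lower, with 5 on each side past 2-fold and a median of 0.09. Btg2, an inhibitor of proliferation that is itself an early response gene, and Klf4 fell, with log2 differences of -2.57 and -2.33, while Gimap3, a GTPase of lymphocyte survival, was higher by 1.55. Klf2, which switches on S1pr1 in resting cells, averaged 33.6 and 27.9, a log2 difference of -0.27 that turned to 0.10 on the deposited scale. Neither Foxo1 at 177 ± 7.97 (SD, n = 4) and 189 ± 15.2 (SD, n = 6) nor Il7r at 840 ± 17.4 and 821 ± 26.0 passed the test, with adjusted p of 0.11 and 0.37.

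Interferon-stimulated genes moved both ways, with more members higher. Of 43 past the filter 28 were higher (65.1%) and 13 lower, 11 (25.6%) and 5 of them by at least 2-fold. The median log2 difference was 0.49, and 0.84 on the deposited scale. Usp18, the protease that removes ISG15 and dampens the type I receptor, read 23.2, 18.8, 24.9 and 20.5 at 48 h and 191 to 247 at 72 h. Mx1, an antiviral GTPase, averaged 20.4 at 48 h and 130 at 72 h. Both were thus under the array median at 48 h. Among GTPases induced by IFN-γ, chosen here after their values were seen, Gbp2 read 238, 201, 185 and 210 at 48 h and 768 to 948 at 72 h, and Igtp 996, 957, 923 and 908 and 3517 to 3963. Socs1, the feedback inhibitor of JAK kinases, was higher by 1.35 ± 0.08 (SE). On the other side, Ifih1, which encodes the RNA sensor MDA5, read 1289, 1154, 1278 and 1380 at 48 h and 172 to 199 at 72 h, and Ifi27l2a fell by 3.33 ± 0.06 (SE).

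RefSeq promoters on GRCm38.p6, taken from 250 bases before to 50 after a start, were searched on both strands for the core of the interferon-stimulated response element, GAAA and GAAA parted by any pair of bases. At least 1 match stood in 51.5% of the 33 list members with a promoter, against 3.99% of all 27025 genes with one and 3.61% of the 8875 tested genes with one. The share was 47.6% of the 21 higher members and 54.5% of the 11 lower ones, and the difference was not tested. Promoters are shown for 3 members that were higher and 1 that was lower, with the match in capitals. Gbp2 lies at chr3:142620413-142620712 on the plus strand, Igtp at chr11:58199306-58199605 on the plus strand, Socs1 at chr16:10785487-10785786 on the minus strand and Ifih1 at chr2:62646206-62646505 on the minus strand. In Socs1 there were 2 overlapping matches. In Gbp2 the match was on the other strand and so reads TTTC.
Gbp2: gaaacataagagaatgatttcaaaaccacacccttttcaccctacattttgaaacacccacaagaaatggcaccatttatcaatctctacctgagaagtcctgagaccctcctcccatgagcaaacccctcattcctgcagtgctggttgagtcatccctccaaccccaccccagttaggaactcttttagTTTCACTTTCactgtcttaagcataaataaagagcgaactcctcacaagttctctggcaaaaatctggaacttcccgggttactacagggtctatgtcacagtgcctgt
Igtp: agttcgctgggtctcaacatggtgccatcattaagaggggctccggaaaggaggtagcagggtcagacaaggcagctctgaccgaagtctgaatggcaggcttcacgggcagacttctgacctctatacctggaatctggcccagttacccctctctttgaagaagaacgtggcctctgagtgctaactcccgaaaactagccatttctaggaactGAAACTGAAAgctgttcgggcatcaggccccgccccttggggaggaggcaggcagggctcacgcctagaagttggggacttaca
Socs1: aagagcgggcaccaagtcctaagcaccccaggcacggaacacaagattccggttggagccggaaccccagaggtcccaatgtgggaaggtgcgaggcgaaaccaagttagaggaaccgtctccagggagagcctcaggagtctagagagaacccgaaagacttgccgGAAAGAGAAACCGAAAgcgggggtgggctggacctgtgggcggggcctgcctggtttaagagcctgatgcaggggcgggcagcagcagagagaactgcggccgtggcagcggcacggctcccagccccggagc
Ifih1: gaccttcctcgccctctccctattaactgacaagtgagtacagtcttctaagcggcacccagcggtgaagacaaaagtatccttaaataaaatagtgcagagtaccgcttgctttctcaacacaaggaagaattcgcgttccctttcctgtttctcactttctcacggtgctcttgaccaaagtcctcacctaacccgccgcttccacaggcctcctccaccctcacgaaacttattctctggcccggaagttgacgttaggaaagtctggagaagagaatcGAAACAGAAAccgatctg

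**Figure D4:**
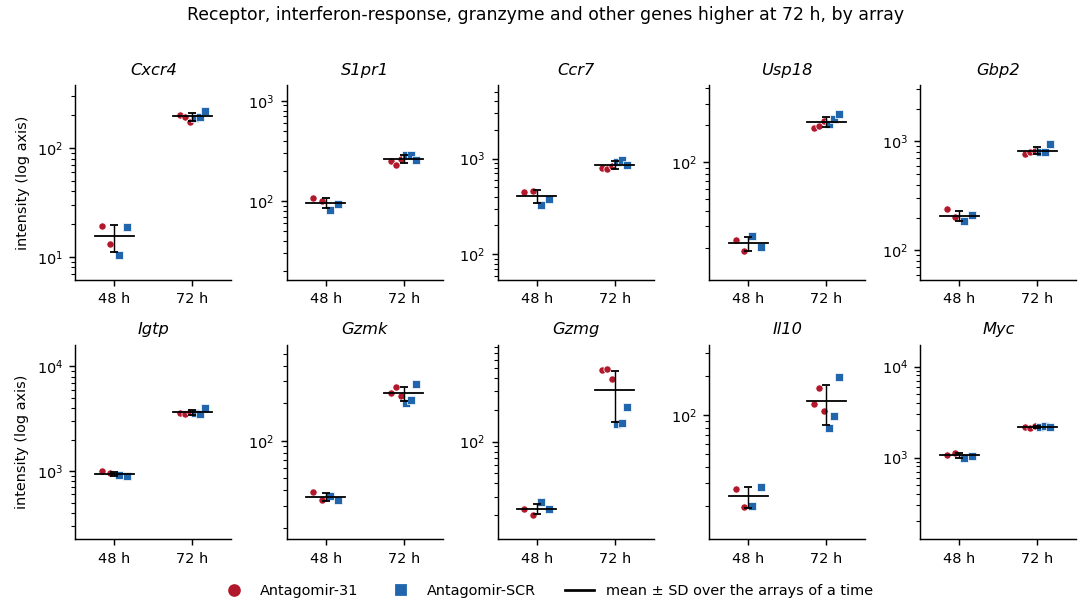
Intensity of 10 genes higher at 72 h on each array (log axes, each with its own range), with the mean and SD over the 4 arrays at 48 h and the 6 at 72 h. All 72 h arrays lie above all 48 h arrays in every panel, and in the Gzmg panel the 3 Antagomir-31 arrays at 72 h lie above the 3 Antagomir-SCR arrays.

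Most genes of the cell cycle were higher, by less than 2-fold. Of 57 members of DNA replication and S phase past the filter 44 were higher (77.2%) and 5 lower, with a median log2 difference of 0.26. Of 71 members of mitosis 57 were higher (80.3%) and 8 lower, with a median of 0.28. Over all genes tested 39.2% were higher. Both medians were 0.21 with median centring and 0.57 on the deposited scale. None of the replication genes and 2 of the mitosis genes passed 2-fold. Mki67, the proliferation antigen, read 1342, 1491, 1579 and 1549 at 48 h and 2496 to 2871 at 72 h. The replicative helicase subunits Mcm5 and Mcm7 were higher by 0.43 and 0.68, and Uhrf1, which brings maintenance methylation to replicating DNA, by 0.66. Gtse1 and the kinesin Kif18b, both of G2 and mitosis, were the 2 past 2-fold, at 124 ± 4.99 and 128 ± 6.11 (SD, n = 4) and at 292 ± 11.6 and 293 ± 11.0 (SD, n = 6).

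The mitosis list also shared promoter letters. The cell cycle homology region, TTTGAA or TTCGAA on either strand, stood in 71.2% of the 59 members with a promoter, against 21.7% of all genes and 16.3% of those tested, and the CCAAT box in 72.9%, against 41.1% and 42.8%. Of the 46 replication genes with a promoter 37.0% held an E2F site (TTTCCCGC or TTTGGCGC) against 1.80% of all and 3.62% of those tested. The promoters of Kif18b, at chr11:102925075-102925374 on the minus strand, and of the kinesin Kif20b, at chr19:34922108-34922407 on the plus strand, are shown with the cell cycle homology region in capitals. Kif20b was higher by 0.91 ± 0.05 (SE), and by 0.27, no longer past the test, when probe sets open to cross-hybridization were left out.
Kif18b: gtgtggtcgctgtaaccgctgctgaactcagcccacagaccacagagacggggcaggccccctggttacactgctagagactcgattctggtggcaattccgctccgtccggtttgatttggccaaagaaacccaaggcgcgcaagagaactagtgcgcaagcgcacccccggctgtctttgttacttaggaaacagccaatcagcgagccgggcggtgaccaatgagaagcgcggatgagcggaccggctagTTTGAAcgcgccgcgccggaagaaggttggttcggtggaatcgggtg
Kif20b: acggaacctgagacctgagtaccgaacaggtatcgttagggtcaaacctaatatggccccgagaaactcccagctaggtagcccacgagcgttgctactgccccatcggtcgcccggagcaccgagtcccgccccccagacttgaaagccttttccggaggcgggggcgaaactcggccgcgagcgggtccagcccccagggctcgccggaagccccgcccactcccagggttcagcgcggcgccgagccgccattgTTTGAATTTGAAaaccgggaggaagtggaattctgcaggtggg

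Targets of p53 and cell cycle inhibitors had the highest share past 2-fold on the upper side among the lists drawn. Of 25 past the filter 16 were higher (64.0%) and 7 lower, with a median log2 difference of 0.50. By at least 2-fold 8 were higher (32.0%, against 2.50% of all genes) and 2 lower (8.0%, against 4.0%). Btg2, with the value given above, was among the lower ones. Phlda3, an inhibitor of AKT, read 174, 163, 143 and 170 at 48 h and 656 to 780 at 72 h. Trp53inp1, which promotes p53 activity, read 469, 435, 352 and 410 and 1548 to 1727, and Zmat3, an RNA-binding p53 target, 261, 250, 248 and 251 and 794 to 859. In the BCL2 family Pmaip1 and Bid, which promote apoptosis, were each higher by 1.06, and Bcl2l11, which encodes BIM, fell by 1.56 in all 5 of its probe sets.

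Genes of cell growth were mostly higher. Myc read 1076, 1132, 983 and 1048 at 48 h and 2102 to 2229 at 72 h, and its relative Mycn was higher by 2.16 ± 0.07 (SE), in 2 of 3 probe sets. Of 72 genes of MYC and ribosome biogenesis 49 were higher (68.1%) and 14 lower, with a median of 0.24 and of 0.15 with median centring. Srm, spermidine synthase, was higher by 0.86. Among targets of IL-2 and STAT5, 13 of 23 were higher (56.5%, against 39.2% of all genes) and 7 lower. The kinase gene Pim2 led the higher ones at 121 ± 10.8 (SD, n = 4) and 416 ± 42.4 (SD, n = 6), while its relative Pim3 fell by 1.23. The cytosolic ribosomal proteins had no direction that held over the scalings, with 13 of 42 higher and 4 lower here, 40 and 1 on the deposited scale, and 6 and 27 with median centring.

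Most amino acid stress genes were lower. Of 36 targets of ATF4, the transcription factor of the integrated stress response, 28 were lower (77.8%) and 4 higher, 12 of the lower ones by at least 2-fold (33.3%), with a median log2 difference of -0.63 and of -0.28 on the deposited scale. Cth, cystathionine gamma-lyase, which makes cysteine, read 4174, 4074, 4227 and 4413 at 48 h and 436 to 577 at 72 h. Aldh1l2, a mitochondrial folate enzyme, fell by 2.49, and Nupr1, a stress-induced chromatin protein, fell from 629.8 ± 59.8 (SD, n = 4) to 157 ± 8.01 (SD, n = 6). The aminoacyl-tRNA synthetases, many of them targets of the same factor, had 13 of 19 members lower and 3 higher. Nars, Cars and Eprs fell, with log2 differences of -1.06, -0.91 and -0.81, while Vars was higher by 0.73, and the list's median of -0.29 turned to 0.02 on the deposited scale. Chaperones and genes of the unfolded protein response were lower in 27 of 38 members and higher in 5, with a median of -0.29 and of -0.04 on the deposited scale. Creld2 and Dnajc3, which are induced by stress in the endoplasmic reticulum, fell, with log2 differences of -1.31 and -1.07.

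**Figure D5:**
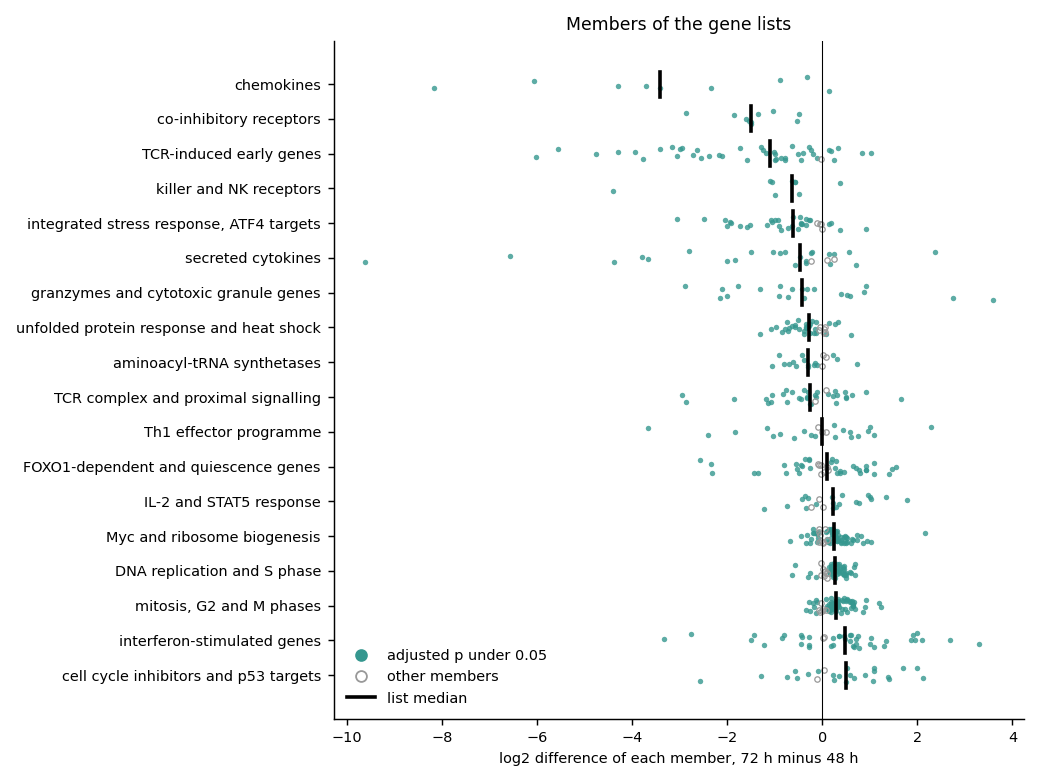
Log2 difference at 72 h minus 48 h of each member past the filter in 18 gene lists, with members past the test filled, other members open and the list median as a bar. The chemokine median at -3.41, the co-inhibitory median at -1.49 and the early response median at -1.10 stand farthest to the left, and the median over all genes tested was 0.01.

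Among genes not yet described, those farthest on the lower side were Idi2 (an isopentenyl diphosphate isomerase), Scg2 (secretogranin II), Siglecf (a sialic acid-binding receptor) and Acsl6 (an acyl-CoA synthetase). They read 1155, 944, 1301 and 843 on average at 48 h and 13.5, 13.7, 26.3 and 22.6 at 72 h. On the upper side, apart from Xist, were Trgv1 and Trgv4, variable segments of the T cell receptor γ locus. Trgv1 read 27.3, 26.1, 21.5 and 25.9 at 48 h and 395 to 504 at 72 h, and Trgv4 averaged 20.8 and 270. Ptp4a3, a phosphatase, stood at 143 ± 12.8 (SD, n = 4) and 1117 ± 80.3 (SD, n = 6). P2rx7, the ATP-gated channel that marks T cells for death by extracellular nucleotides, averaged 16.8 and 123.

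Whether the change over time depended on the antagomir was tested last. The limma interaction of time and treatment was called for 0 of 10916 genes (0%), with the smallest adjusted p at 0.084. In the same test 1109 genes (10.2%) had an unadjusted p under 0.05, where 545.8 are expected by chance. All 710 genes past 2-fold moved in the same direction in both treatments, and 632 of them passed 2-fold in each. These genes were selected on the 2 treatments pooled, which largely fixes that agreement, so no conclusion is drawn from it. Egr1 fell by 5.20 with Antagomir-31 and fell by 5.94 with Antagomir-SCR, a difference of 0.73 with an adjusted p of 0.084. With 2 arrays a group at 48 h, a p that misses the threshold does not show that the treatments acted alike.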

How the data were processed

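Total RNA of 14 samples was reverse transcribed and then hybridized to Affymetrix mouse genome arrays. The authors deposited 1 intensity per probe set on a linear scale, and the submitters' processing notes name GCOS, RMA and affy without versions. The 45101 probe sets were named from the platform annotation: 34945 had 1 gene symbol, 932 several and 9160 none, and only the first were used. Of 1206 genes in the lists 1101 were matched, and the others were not analysed here.

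The deposited intensities of the 10 arrays were log2 transformed and quantile normalized together. Each of 18193 genes was read by its probe set of highest mean, and the brightest 60% (10916) entered a linear model of time and treatment (limma 3.58.1, R 4.3.3) and Benjamini-Hochberg adjustment. An adjusted p under 0.05 was a call. The interaction of time and treatment was fitted separately. Scripts were tested on simulated data. The number of arrays limits the precision.

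Named genes were the 12 largest changes each way without overlap of the times, up to 4 members of each list with the largest change, and a set of core genes. The members and lists were chosen with earlier results of these data known. Alternatives changed the scaling, filter, probe set rule, covariates, replicate block and arrays. The main model did not pair arrays by replicate number. Deviations of same-numbered arrays correlated at -0.15 at 48 h and at -0.07 to 0.05 at 72 h. With 2 arrays a group at 48 h, deviations from the group mean mirror each other, so both pairs there give the same value. Whether the arrays were paired by culture is not stated, and these correlations cannot decide it.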

Additional observations from a re-analysis of the deposited data

Results flagged for a closer look

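Of 344 groups of arrays examined over the named genes, 14 held 1 array far from the others of its time, where chance at 1 in 20 gives 17.2. At 48 h these were Abca1 at 53.47 (others 66.1 to 66.6) on Antagomir-31 replicate 2, Mcm7 at 1995 (others 2131 to 2140) and Mx1 at 24.87 (others 18.5 to 19.4) on Antagomir-31 replicate 1, Il18r1 at 1117 (others 1202 to 1218) and Gzmb at 14800 (others 15324) on Antagomir-SCR replicate 1, and Cd5 at 1762 (others 1504 to 1534) and Klrd1 at 2155 (others 2216 to 2220) on Antagomir-SCR replicate 2. At 72 h they were Ak1 at 440.2 (others 363 to 382), Ctsw at 173 (others 120 to 139) and Psap at 795.6 (others 677 to 699) on Antagomir-SCR replicate 4, Il2 at 16.51 (others 11.9 to 13.6) on Antagomir-SCR replicate 3, Foxo1 at 218.6 (others 177 to 191) and Nupr1 at 141.8 (others 156 to 163) on Antagomir-31 replicate 2, and Aldh1l2 at 35.19 (others 27.0 to 29.6) on Antagomir-31 replicate 3. Gzmb ranked 5 or 6 on the 48 h arrays, so quantile normalization gave it the values of neighbouring ranks there. In the deposited values it read 13803 to 14119 at 48 h.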

How the results depend on the processing

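Over 26 alternatives, 108 of the 109 named genes past 2-fold were called in the same direction in each one that gave a value, and Prf1 was the exception at 0.46 without probe sets open to cross-hybridization. These genes were selected as past 2-fold in the same arrays, which largely fixes that agreement. Of the 40 list medians, 20 changed sign in some alternative. With no filter 12667 genes changed and 6398 were lower. On the deposited scale 7797 were higher and 1657 lower, and past 2-fold 756 and 263. That scale turned Csf1r to 0.093, Ebf1 to 0.064, Fcgr1 to 0.15, Gpr83 to 0.22, Gzmb to 0.043, Il7r to 0.22, Klf2 to 0.10 and Siglech to 0.15, and median centring turned Actb to -0.001252. Leaving out 1 array at a time gave 8017 to 8270 changed genes, 4116 to 4239 higher, 3816 to 4065 lower, and past 2-fold 685 to 721, 262 to 283 higher and 416 to 451 lower. The interaction called 0 to 6 genes when 1 array was left out (3 without Antagomir-SCR 72 h replicate 4 and 6 without Antagomir-SCR 48 h replicate 2), 4 with all 14 arrays, 18 when the prior variance followed a trend and 9 under a floor of 6 on the mean log2 level, and the cause was not tested. Without X and Y genes 8092 changed and 691 did so past 2-fold. The replicate block gave 8535 calls as a random term and 6668 as a fixed term, and 8397 with the numbers crossed at 48 h, an alternative chosen after seeing the data, as was leaving out X and Y genes. Genes near the array median have folds limited by background.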

Other observations

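Metabolic and structural genes not described above moved in both directions. Of 39 genes of glycolysis and the hypoxia response 22 were higher (56.4%, against 39.2% of all genes) and 12 lower (30.8%, against 37.3%). Nrn1 and P4ha2, a collagen prolyl hydroxylase, stood at -2.63 and -2.19 on the log2 scale and Pfkl, a phosphofructokinase subunit, was higher by 1.20. Of 36 genes of sterol and fatty acid synthesis 19 were lower and 7 higher, a median of -0.15 that turned to 0.14 on the deposited scale. Abca1, the cholesterol exporter, was higher by 2.13. Among enzymes of chromatin and DNA methylation Dnmt3a, which methylates DNA de novo, fell by 2.28 on the log2 scale while Dnmt1, which maintains methylation, was higher by 1.04.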
